A study of Mus musculus with 9 samples.

Results

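The cells described here are preleptotene (pL) spermatocytes, the germ cells that stand between the last spermatogonial (SG) divisions and leptotene (L), the opening stage of meiotic prophase. They were taken from single cell RNA-seq of whole testes of 9 mice at postnatal day 24 (PND24). There was 1 library per mouse, so p-values rest on the spread between mice, and unique molecular identifiers (UMIs) were counted at the 3′ ends of transcripts. A barcode past the quality filter (over 1000 genes and under 10% mitochondrial UMIs) was taken as a pL cell when it held at least 2 UMIs of Stra8, at least 1 UMI of Gm4969 (Meiosin), at most 3 UMIs of Piwil1, and a UMI of no more than 3 of 6 genes of undifferentiated SG (Gfra1, Zbtb16, Trim71, Egr4, Etv5, Glis3). This gate held 1913 of 45132 barcodes. Because Stra8, Gm4969 and the other 7 genes chose the cells, they were not tested, and the levels given below for some of them are a description.

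The control group had 4 mice, the NELF-B cKO group 2 mice and the TDP-43 cKO group 3 mice, and the study asked what the loss of either factor does to male germ cells. All mice carry the genotype label C57BL/6, and the alleles of the control mice at the Nelfb and Tardbp loci are not stated. Controls were partly littermates of the cKO mice, and the deposited name of 1 control library holds the letters het, which no source explains and which were not used. The cKO mice were males on the B6 background with 1 floxed and 1 null allele of Nelfb or Tardbp and the Stra8-iCre transgene, whose recombinase is active in SG from PND4 and removes exon 3 of Tardbp or, in Nelfb, exons 1 to 4. Deletion therefore precedes the pL stage only in cells in which the recombinase acted, the other testicular cells keep 1 functional allele, and a 3′ count does not read the deleted exon of Tardbp. NELF-B is a subunit of the negative elongation factor, which holds RNA polymerase II in a paused state shortly after it has started a gene. TDP-43 is an RNA and DNA binding protein known for its part in splicing and in transcription.

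Retinoic acid switches on Stra8 as SG leave their mitotic cycle, and STRA8 pairs with MEIOSIN to turn on genes of meiosis. During this stage the cell runs its premeiotic S phase, in which histone genes are strongly expressed, and loads the meiotic cohesin subunit REC8 onto its chromosomes. Double-strand breaks made by SPO11 and the pairing of homologous chromosomes follow in L and zygotene.

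The promoters of a few of the genes to which the results return are shown here, to give the sequence next to the counts. Each is the run of 250 bases before the RefSeq start site on GRCm38.p6, read 5′ to 3′ on the strand of the gene, and capitals mark TATAAA and CCAAT on either strand (CCAAT on the opposite strand reads ATTGG). Stra8 marked the cells (chr6:34920698-34920947, plus strand), Rec8 fell in the TDP-43 cKO (chr14:55617916-55618165, plus strand), Hist1h1a is a histone marker of the stage (chr13:23763418-23763667, plus strand), and Hist1h1e (chr13:23622559-23622808, minus strand) and H1f0 (chr15:79027962-79028211, plus strand) rose in the NELF-B cKO.
Stra8: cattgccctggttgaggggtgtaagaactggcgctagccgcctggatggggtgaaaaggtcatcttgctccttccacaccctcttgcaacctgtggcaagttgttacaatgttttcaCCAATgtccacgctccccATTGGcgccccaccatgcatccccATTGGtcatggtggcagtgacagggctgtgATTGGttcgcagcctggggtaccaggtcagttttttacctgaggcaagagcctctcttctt
Rec8: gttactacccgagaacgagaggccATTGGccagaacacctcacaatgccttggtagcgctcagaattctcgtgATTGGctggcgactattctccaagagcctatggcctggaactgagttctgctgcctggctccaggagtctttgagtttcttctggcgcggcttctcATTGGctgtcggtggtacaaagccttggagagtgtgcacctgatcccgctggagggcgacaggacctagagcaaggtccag
Hist1h1a: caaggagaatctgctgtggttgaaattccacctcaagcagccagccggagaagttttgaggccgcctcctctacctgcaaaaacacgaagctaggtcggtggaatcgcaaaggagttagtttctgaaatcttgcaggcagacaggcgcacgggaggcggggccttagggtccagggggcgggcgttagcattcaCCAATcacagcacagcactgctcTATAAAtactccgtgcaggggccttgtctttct
Hist1h1e: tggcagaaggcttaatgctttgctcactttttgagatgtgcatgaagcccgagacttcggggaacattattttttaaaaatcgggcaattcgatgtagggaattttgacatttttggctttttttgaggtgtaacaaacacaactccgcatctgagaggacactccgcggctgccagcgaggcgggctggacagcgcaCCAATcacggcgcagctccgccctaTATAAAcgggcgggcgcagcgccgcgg
H1f0: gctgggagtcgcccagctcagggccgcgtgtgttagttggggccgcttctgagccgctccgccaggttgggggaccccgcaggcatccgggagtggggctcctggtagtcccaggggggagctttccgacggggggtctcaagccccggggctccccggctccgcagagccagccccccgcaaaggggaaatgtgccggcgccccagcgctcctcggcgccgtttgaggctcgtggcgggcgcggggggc
RefSeq and GENCODE start sites differ for some of these genes: the Stra8 window lies wholly inside the GENCODE gene (34920163 to 34939344) and the Rec8 window partly inside it (from 55618037), so these 2 windows are upstream of the RefSeq start only. Hist1h1a and Hist1h1e each held CCAAT and TATAAA in that order close to the start, with TATAAA from -33 to -28 in the former and from -27 to -22 in the latter, counted from the start site. Stra8 held CCAAT at 4 places and Rec8 at 3, in both cases without TATAAA, and the window of H1f0 held neither. Of 62 promoters matched to the genes of the histone clusters, 46.8% held TATAAA and 82.3% held CCAAT, against 12.4% and 33.8% of all 32851 promoters of that length. CNCCTCAG, letters known from promoters bound by STRA8, was searched on both strands as well, stood in none of the 5 windows and in 6.42% of all promoters.

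The gate gave 81, 95, 146 and 136 pL cells in control mice, 320 and 147 in NELF-B cKO mice, and 334, 306 and 348 in TDP-43 cKO mice. Libraries held 119203347 to 159407373 UMIs over all barcodes, and the median pL cell of a mouse held 8966 to 22867.5 UMIs. Of 36 pairs of libraries, 1 pair shared a single pL barcode. Cells near the edges of the gate were common: 227 pL cells held exactly 2 UMIs of Stra8 and 373 barcodes were left out with exactly 1, while 859 held a single UMI of Gm4969 and 1933 barcodes were left out for having none. At the other limits, 91 cells held exactly 3 UMIs of Piwil1 with 27 barcodes at 4, and 132 cells held UMIs of 3 of the SG genes with 111 barcodes at 4.

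The 3 markers of the stage that the gate did not use followed the label in every mouse. They were chosen with earlier results of these data known, and the comparison gates exclude cells with Gm4969. Their levels are therefore no independent support for the label. Levels here are CPM, the UMIs of a gene summed over the cells of a mouse and scaled to the same total in each mouse, set beside gated SG (1267 barcodes with a UMI each of Dazl, Kit and Dmrtb1) and gated L cells (631 barcodes with at least 2 UMIs of Dmc1 and 1 of Prdm9), both with at most 1 UMI of Stra8, none of Gm4969 and at most 3 of Piwil1. Between 3 and 29 barcodes per mouse met both the SG and the L gate. As a share of the L gate this ran from 3 of 38 barcodes in control replicate 1 to 23 of 74 in NELF-B cKO replicate 1. Stra8 itself, by choice of the cells, was at 580, 531, 798 and 599.6 CPM in the pL cells of controls, at 868 and 591 CPM in those of the NELF-B cKO and at 534, 511 and 486 CPM in those of the TDP-43 cKO. Gm4969, also a gate gene, was at 129, 121, 151 and 134 CPM in controls and at 194 and 117 CPM in the NELF-B cKO. In the TDP-43 cKO Gm4969 was at 84.1, 100 and 108 CPM, below every control, and the part of depth was not tested. Rhox13, a homeobox gene of differentiating germ cells, stood at 219 ± 21.9 CPM (SD, n = 9) in pL cells, 115 ± 22.9 in SG and 137 ± 25.7 in L cells. Rec8 stood at 37.8 ± 16.5 CPM in pL cells, 19.6 ± 11.1 in SG and 9.43 ± 4.43 in L cells. Hist1h1a, which encodes a linker histone, stood at 402 ± 87.1 CPM in pL cells, 193 ± 86.7 in SG and 206 ± 118 in L cells. All 3 were higher in pL cells than in both neighbours in 9 of 9 mice.

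The clustered histones summed to 2329 ± 866 CPM (SD, n = 9) in pL cells, 1093 ± 451 in SG and 1328 ± 625 in L cells, and were higher in pL cells than in both in 9 of 9 mice. The DNA replication genes (the MCM helicase, polymerases, nucleotide supply) summed to 2357 ± 111 CPM in pL cells against 1953 ± 142 in L cells, and were higher in pL cells in 9 of 9 mice. Their level in SG is not given here, so these values do not show a peak at pL. The synaptonemal complex centre (Sycp1, Syce2 and partners) was at 3032 ± 283 CPM in pL cells, 1267 ± 222 in SG and 3651 ± 722 in L cells. It was higher in pL cells than in SG in 9 of 9 mice, and higher in pL than in L cells in 3 of 9, which were both NELF-B cKO mice (3416 against 2333 CPM and 3165 against 3039 CPM) and TDP-43 cKO replicate 1 (3299 against 3282 CPM). The spermatogonial differentiation group (Kit, Sohlh1, Ccnd1 and others, of which Kit and Dmrtb1 chose the SG) was at 996 ± 106 CPM, below SG (1547 ± 279) in 9 of 9 mice, and at 1071 ± 405 CPM in L cells, where both NELF-B cKO mice (2080.2 and 1258 CPM) and control replicate 4 (1001 CPM) were above their pL cells. In NELF-B cKO replicate 1 the L level was close to that of its SG (2111 CPM), and 23 of its 74 L barcodes also met the SG gate. Its L values, also those above for the synaptonemal complex centre, are uncertain for that reason. Meiob, whose protein binds single-stranded DNA at breaks, was at 42.8 ± 15.5 CPM in pL cells and 171 ± 28.5 in L cells, and Spo11 at 19.2 ± 4.87 and 75.3 ± 33.2 CPM. Mei1, a gene needed for break formation, was at 162 ± 38.7 CPM in pL cells, 37.9 ± 11.2 in SG and 45.5 ± 17.6 in L cells. These values describe cells chosen on the same transcriptomes, so no test was made.

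**Figure D1:**
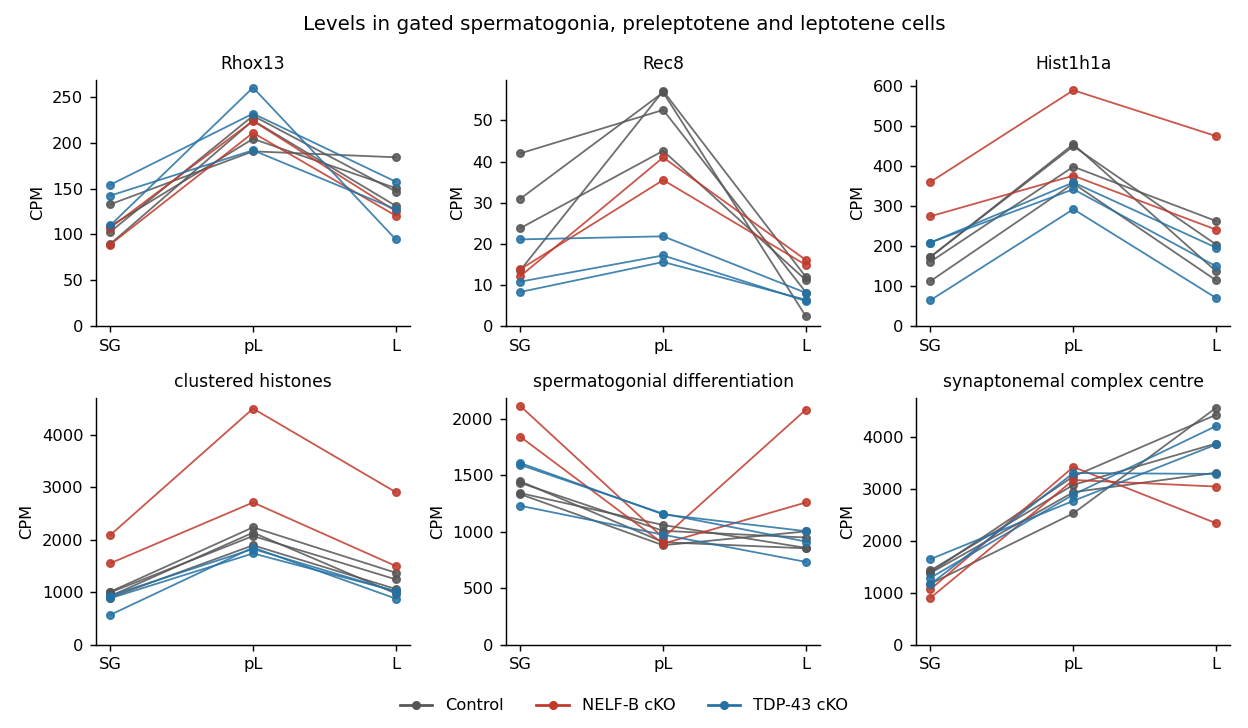
Levels in CPM of 3 markers and of 3 gene groups (summed) in gated SG, pL and L cells, with 1 line per mouse and colours for the groups of mice. Rhox13, Rec8, Hist1h1a and the clustered histones peak at pL in each of the 9 mice, while the synaptonemal complex centre is above SG in pL cells of each mouse; the NELF-B cKO lines lie above the rest for the clustered histones.

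The cells of a mouse were cut into 3 equal ranges of Stra8 per UMI, and the means over 9 mice are given with SDs. Stra8 is a gate gene, and the ranges differed in depth: the median cell of the lowest range held more UMIs than that of the highest in 9 of 9 mice (15114 against 9054 in control replicate 1, 25269.5 against 12714 in TDP-43 cKO replicate 3), and the part of depth was not tested. The clustered histones summed to 1407 ± 601 CPM in the lowest range and 4042 ± 1385 in the highest, and were higher in the highest range in 9 of 9 mice. The cohesin and axis group went from 3277 ± 635 to 5641 ± 875 CPM and the break formation group from 1012 ± 225 to 1691 ± 189, both in 9 of 9 mice. Hist1h2aa, the testis form of H2A, went from 260 ± 169 to 1087 ± 481 CPM, and Dmc1, the meiotic recombinase, from 229 ± 70.5 to 460 ± 60.9. The spermatogonial differentiation group went from 1191 ± 154 to 744 ± 192 CPM, lower in 8 of 9 mice, and its members differed. Ccnd1, a cyclin of G1, went from 170 ± 32.6 to 43.3 ± 16.8 CPM and Crabp1, a retinoic acid binding protein, from 166 ± 20.5 to 80.7 ± 21.9, both lower in the highest range in 9 of 9 mice. Sohlh2, a transcription factor gene of SG, went from 22.6 ± 9.08 to 36.6 ± 10.36 CPM, higher in 9 of 9 mice, and Kit, the receptor of differentiating SG, from 90.7 ± 19.4 to 96.0 ± 28.6 CPM, higher in 6 of 9. Rec8 did not follow the gradient, with 33.1 ± 14.8 and 32.3 ± 14.6 CPM in the lowest and highest ranges. Sertoli cell markers were richer in the lowest range (696 ± 436 CPM) than in the highest (201 ± 95.5), lower there in 8 of 9 mice, and their part in the gradient was not tested.

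**Figure D2:**
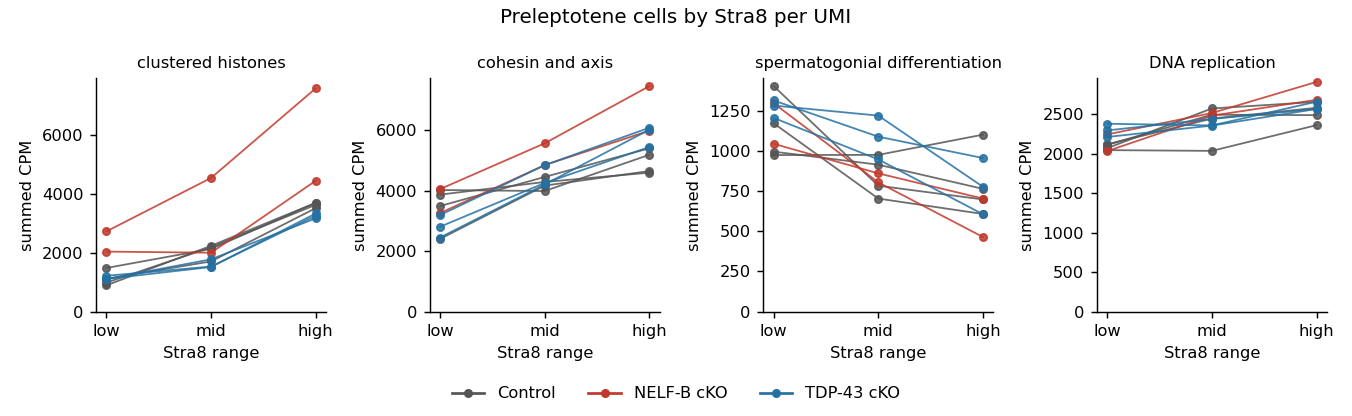
Summed CPM of 4 gene groups in the pL cells of each mouse, cut into low, mid and high ranges of Stra8 per UMI, with 1 line per mouse. The clustered histones and the cohesin and axis genes are higher at high Stra8 in all 9 mice, and spermatogonial differentiation genes are lower in 8 of 9.

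The share of pL cells among barcodes past the filter was higher in both cKOs than in every control mouse. It was 1.06, 1.12, 2.85 and 2.79% in control mice, 5.68 and 4.93% in NELF-B cKO mice, and 8.46, 10.1 and 10.1% in TDP-43 cKO mice, so the groups did not overlap. The means were 1.96 ± 0.996% (SD, n = 4), 5.30 ± 0.528% (n = 2) and 9.55 ± 0.946% (n = 3). The exact two-sided permutation test gave p = 0.133 for the NELF-B cKO and p = 0.0571 for the TDP-43 cKO, the smallest values these numbers of mice allow. After removal of pL cells that still held a Tardbp UMI from TDP-43 cKO mice alone, their shares were 3.98 to 4.84%, again above all controls, and the ratio to control went from 4.89 to 2.25. A share of barcodes does not count cells per testis, and it also rises when other cells are missing.

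The gate needs counts, and the median barcode past the filter held 1754 to 6369 UMIs in control mice, 5165 and 17312.5 in NELF-B cKO mice and 14117 to 19254 in TDP-43 cKO mice. When each barcode was thinned to 5000 UMIs before the gate, the share of barcodes with at least 5000 UMIs was 2.47, 2.00, 3.76 and 2.57% in control mice, 5.50 and 2.26% in NELF-B cKO mice and 2.96, 4.35 and 4.80% in TDP-43 cKO mice. The groups then overlapped, with ratios to control of 1.44 (exact permutation p = 0.533) and 1.50 (exact permutation p = 0.114). Among the gated SG, pL and L cells together, pL cells were 33.2, 39.4, 43.8 and 44.6% in control mice, 47.0 and 50.5% in NELF-B cKO mice and 77.1, 57.3 and 56.2% in TDP-43 cKO mice.

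**Figure D3:**
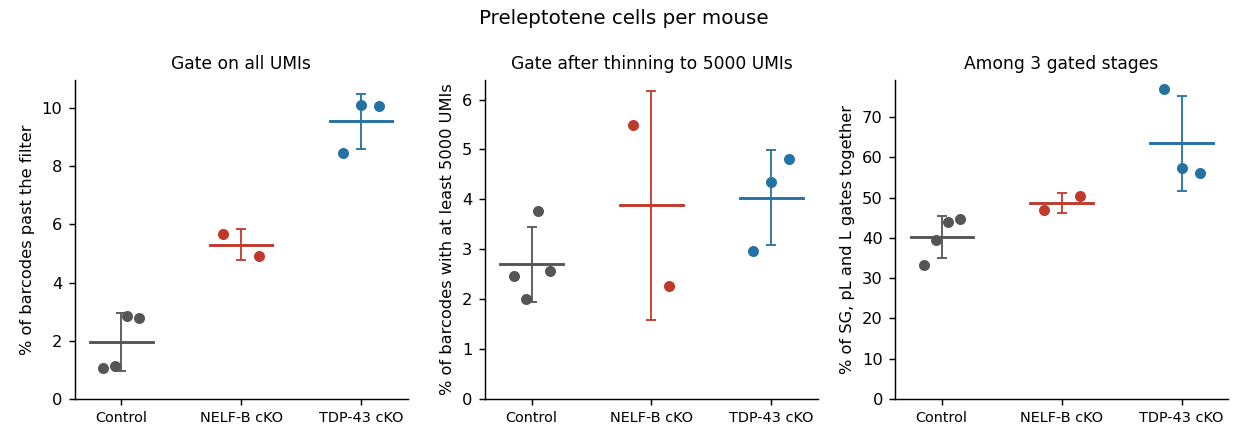
Share of pL cells per mouse (points; bars give the mean and SD) as a percent of all barcodes past the filter, of barcodes with at least 5000 UMIs after thinning to that depth, and of the 3 gated stages. The cKO mice lie above all controls on the left and right, while after thinning the groups overlap.

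The targeted genes were lower in the cKO that the labels give. Nelfb (ENSMUSG00000013465, chromosome 2, 25199712 to 25211489) was at 73.7, 61.9, 65.6 and 73.4 CPM in the pL cells of the control mice and at 3.29 and 3.98 CPM in NELF-B cKO mice (log2 fold change -4.19 ± 0.19, SE, adjusted p = 1.17e-05, edgeR). A UMI of Nelfb was found in 53.1 to 62.5% of control pL cells and in 3.75 and 4.76% of NELF-B cKO pL cells. In free RNA, read from barcodes with 1 to 100 UMIs, Nelfb stood at 4.15 CPM on average in NELF-B cKO mice, about the level in their pL cells. Tardbp (ENSMUSG00000041459, chromosome 4, 148612382 to 148627019) was at 115, 77.7, 92.2 and 105 CPM in control pL cells and at 34.3, 48.3 and 43.6 CPM in the TDP-43 cKO, a log2 fold change of -1.19 ± 0.15 (SE, adjusted p = 0.0139). In free RNA Tardbp averaged 81.0 CPM in TDP-43 cKO mice, above the 42.0 CPM of their pL cells, and 108 CPM in control mice. Its 3′ UMIs do not say whether exon 3 was lost, and 52.0 to 56.5% of TDP-43 cKO pL cells held one.

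Expression was tested over 14552 genes on UMI counts summed per mouse, with the 3 groups of mice in 1 edgeR fit and the 9 genes of the gate left out. In the NELF-B cKO, 28 genes were higher (0.192% of those tested) and 11 lower (0.0756%) at an adjusted p under 0.05, in all 0.268%. In the TDP-43 cKO, 338 were higher (2.32%) and 872 lower (5.99%), in all 8.32%. With stricter limits (an adjusted p under 0.01 and 1 or more on the log2 scale in either direction, from edgeR values without the shrinkage of fold changes that the study used) 1 gene (0.00687%) and 13 genes (0.0893%) passed, and 20.0% and 22.4% of genes had an unadjusted p under 0.05. The comparisons share the 4 control mice. These counts moved with single mice: with 1 mouse left out in turn they were 0 to 231 higher and 1 to 373 lower in the NELF-B cKO (0 higher without control replicate 2 or 3, 231 higher and 373 lower without NELF-B cKO replicate 1), and 11 to 283 higher and 1 to 473 lower in the TDP-43 cKO (11 higher and 1 lower without control replicate 4). The TDP-43 cKO calls also moved with few cells. When the 2.05 to 6.89% of pL cells per mouse with over 0.2% of their UMIs in markers of round spermatids and somatic cells were left out, a step chosen after seeing the data, 2 genes were higher and 3 lower. The same step in the NELF-B cKO gave 99 higher and 33 lower genes, among them all 39 of the original calls. Those cells were deeper than the rest in 8 of 9 mice (62337 against 18235 UMIs at the median in TDP-43 cKO replicate 3), no doublet caller was run, and their nature was not tested.

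In the NELF-B cKO, H2afx and H1f0, both histone genes, rose in pL cells. Markers of other cells moved with this comparison, with none called. The Leydig cell sum was 12.6 to 163 CPM in control and 230 and 235 CPM in NELF-B cKO mice, with none of 6 called higher (0.192% of all genes), and without the cells rich in other markers 1 of 5 was, Star, as were 99 of all 13973 genes (log2 fold change 1.35, adjusted p = 0.0425). Sertoli markers summed to 224 to 401 CPM in control and 378 and 591 CPM in NELF-B cKO mice, interstitial markers to 3.497 to 6.67 and 32.7 and 66.1 CPM, and macrophage markers to 1.91 to 5.25 and 12.2 and 24.05 CPM. Round spermatid markers summed to 151 to 230 CPM in control and 18.4 and 221 CPM in NELF-B cKO mice, and pachytene and diplotene markers to 411 to 496 and 165 and 368 CPM. The part of these cells in the results was not tested. After subtraction of free RNA no gene was called higher in the NELF-B cKO, H2afx and H1f0 included. The amount subtracted was estimated at 13.5% (control replicate 4) to 50.5% (control replicate 2) of the pL UMIs of a mouse. It was scaled to the markers of spermatids and somatic cells, and its accuracy was not tested. Over all 16 alternatives the log2 fold change was 0.90 to 1.12 for H2afx and 1.15 to 1.33 for H1f0. H2afx, which encodes the variant H2A.X that is phosphorylated at DNA breaks (ENSMUSG00000049932, chromosome 9, 44334694 to 44336077), was at 192, 172, 172 and 159 CPM in control mice, 357 and 325 CPM in NELF-B cKO mice and 144, 128 and 128 CPM in TDP-43 cKO mice. Both NELF-B cKO mice stood above all others, and the log2 fold change against control was 1.03 ± 0.11 (SE, adjusted p = 0.0108). H1f0, which encodes the replication-independent linker histone H1.0 and whose promoter is shown above, was at 69.3, 84.8, 84.4 and 104 CPM in control mice and at 197 and 195 CPM in NELF-B cKO mice. It rose by a log2 fold change of 1.23 ± 0.13 (SE, adjusted p = 0.0127), and the 3 TDP-43 cKO mice, at 79.5 to 89.6 CPM, lay within the range of the controls. The effects of the 2 cKOs differed for H2afx (adjusted p = 0.00145 for TDP-43 cKO against NELF-B cKO) and for H1f0 (adjusted p = 0.0154). Both genes were also higher at high Stra8 in 9 of 9 mice. From the lowest to the highest range H2afx went from 150 to 284 CPM and H1f0 from 85.5 to 156 CPM. Stra8 was at 868 and 591 CPM in NELF-B cKO mice and at 531 to 798 CPM in control mice. The part of this gradient in the rises was not tested.

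Hist1h1e, a linker histone gene of the cluster on chromosome 13 whose promoter carries both motifs, was at 79.0, 79.6, 83.5 and 85.6 CPM in control mice and at 260 and 127 CPM in NELF-B cKO mice (log2 fold change 1.28 ± 0.21, SE, adjusted p = 0.0435). Both NELF-B cKO mice were above all controls, and replicate 1 was higher than replicate 2. TDP-43 cKO mice were at 110, 114 and 111 CPM, also above all controls, with no call (log2 fold change 0.47, adjusted p = 0.177, edgeR). The contrast of the 2 cKOs had an adjusted p of 0.0879 (edgeR). Hist1h1e was also higher at high Stra8 in 9 of 9 mice (46.5 CPM in the lowest and 237 in the highest range), and the part of this gradient was not tested. Over the clustered histones, 49 of 67 genes passed the filter on low counts and 1 was called, Hist1h1e, where 0.192% of all genes were called higher. The median log2 fold change was 0.91, against -0.02 over all genes tested, and 45 of the 49 lay above 0. At an unadjusted p under 0.05, 29 were higher, where the share over all genes was 10.7%, and none was lower, where it was 9.3%. For 27 of them both NELF-B cKO mice were above all controls, where the share over all genes was 11.2%. Summed over the list, the level was 1893 to 2236 CPM in control mice and 2710 and 4502 CPM in NELF-B cKO mice. Without the cells rich in other markers, 6 of 48 were called higher, where 99 of all 13973 genes were, with Hist1h2bc at 1.43 and Hist1h4i at 1.61 on the log2 scale.

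H3f3b, H1fx and H2afz are histone genes outside the clusters, taken from the called genes after their values were seen and from no fixed list. H3f3b and H1fx encode the replacement histone H3.3 and a further linker histone. H3f3b went from 2644 to 4868 CPM on average (log2 fold change 0.93, adjusted p = 0.0145) and H1fx from 364 to 707 CPM (log2 fold change 1.00, adjusted p = 0.0301). H2afz, which encodes H2A.Z, went from 523 to 1019 CPM (log2 fold change 1.01, adjusted p = 0.0435). Histone genes of the clusters have few polyadenylated transcripts, which are what a 3′ poly(A) library captures, so their UMIs need not follow their total RNA. Near-identical copies within the clusters can share reads, and single members are uncertain for that reason.

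**Figure D4:**
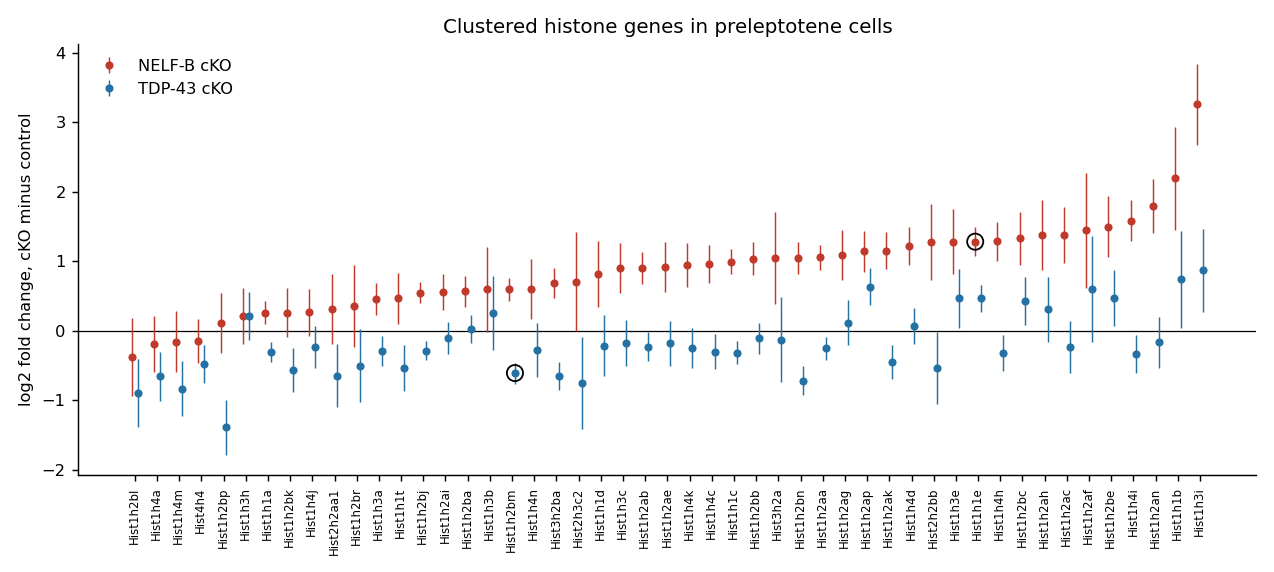
Log2 fold change against control (points, with SE) for the 49 clustered histone genes tested, ordered by their value in the NELF-B cKO, with the TDP-43 cKO beside it and circles around genes called at an adjusted p under 0.05. In the NELF-B cKO 45 of 49 points lie above 0, in the TDP-43 cKO 14 of 49; each comparison has 1 circle.

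In the TDP-43 cKO the same histone list gave 1 gene of 49 lower and none higher, under the shares of all genes (5.99% lower and 2.32% higher). Hist1h2bm, an H2B gene, was at 84.4, 98.2, 97.1 and 86.5 CPM in control mice and at 55.0, 60.7 and 62.1 CPM in TDP-43 cKO mice (log2 fold change -0.61 ± 0.15, SE, adjusted p = 0.0391). The median of the 49 genes was -0.25 against 0.02 over all genes, and the list summed to 1738 to 1850.0 CPM in TDP-43 cKO mice, below all 4 controls. Hist1h2bm was also higher at high Stra8 in 9 of 9 mice (50.9 CPM in the lowest and 163 in the highest range), and the part of this gradient was not tested. Hist1h2bm was no longer called without the cells rich in other markers, while its log2 fold change was -0.83 to -0.42 over all 17 alternatives.

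Rec8 fell in the TDP-43 cKO. This gene of the meiotic cohesin (ENSMUSG00000002324, chromosome 14, 55618037 to 55625395; promoter shown above) was at 42.6, 57.2, 56.8 and 52.6 CPM in control mice, 41.0 and 35.5 CPM in NELF-B cKO mice and 15.6, 21.8 and 17.2 CPM in TDP-43 cKO mice. All TDP-43 cKO values were below all others, and the log2 fold change against control was -1.52 ± 0.16 (SE, adjusted p = 0.00497). For the NELF-B cKO it was -0.41 ± 0.17 (SE, adjusted p = 0.225), and the 2 effects differed (adjusted p = 0.0341). After each cell was thinned to 5000 UMIs, a Rec8 UMI was found in 22.1, 13.04, 26.7 and 21.5% of control pL cells and in 5.99, 8.67 and 7.58% of TDP-43 cKO pL cells. In thinned L cells, in which Rec8 is low, that share was 0 to 8.62% over the 9 mice. Unthinned, the shares in pL cells were 37.0 to 45.2% in control and 25.0 to 28.1% in TDP-43 cKO mice. Without the cells rich in other markers the log2 fold change was -1.60, with an adjusted p of 0.0353. In free RNA Rec8 averaged 27.6 CPM in control mice and 14.0 CPM in TDP-43 cKO mice, so it moved the same way. After subtraction of free RNA its adjusted p was 0.255 (edgeR), and no gene was called in the TDP-43 cKO (lowest adjusted p 0.184). Over all 17 alternatives, this 1 included, the log2 fold change of Rec8 was -1.77 to -1.38.

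Of the 10 cohesin and axis genes, 1, Rec8, was called in the TDP-43 cKO, close to the share of all genes (8.32%), and the median log2 fold change of the list was -0.01. Smc1b, a partner of REC8 in the meiotic cohesin ring, had a log2 fold change of 0.04 ± 0.09 (SE), and Sycp3, of the chromosome axis, 0.05 ± 0.15. None of the 10 was called in the NELF-B cKO, where 0.268% of all genes were (3 of its more abundant members, Smc1b, Smc3 and Sycp3, had values of 0.35, 0.34 and 0.48, with adjusted p from 0.089 to 0.175).

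**Figure D5:**
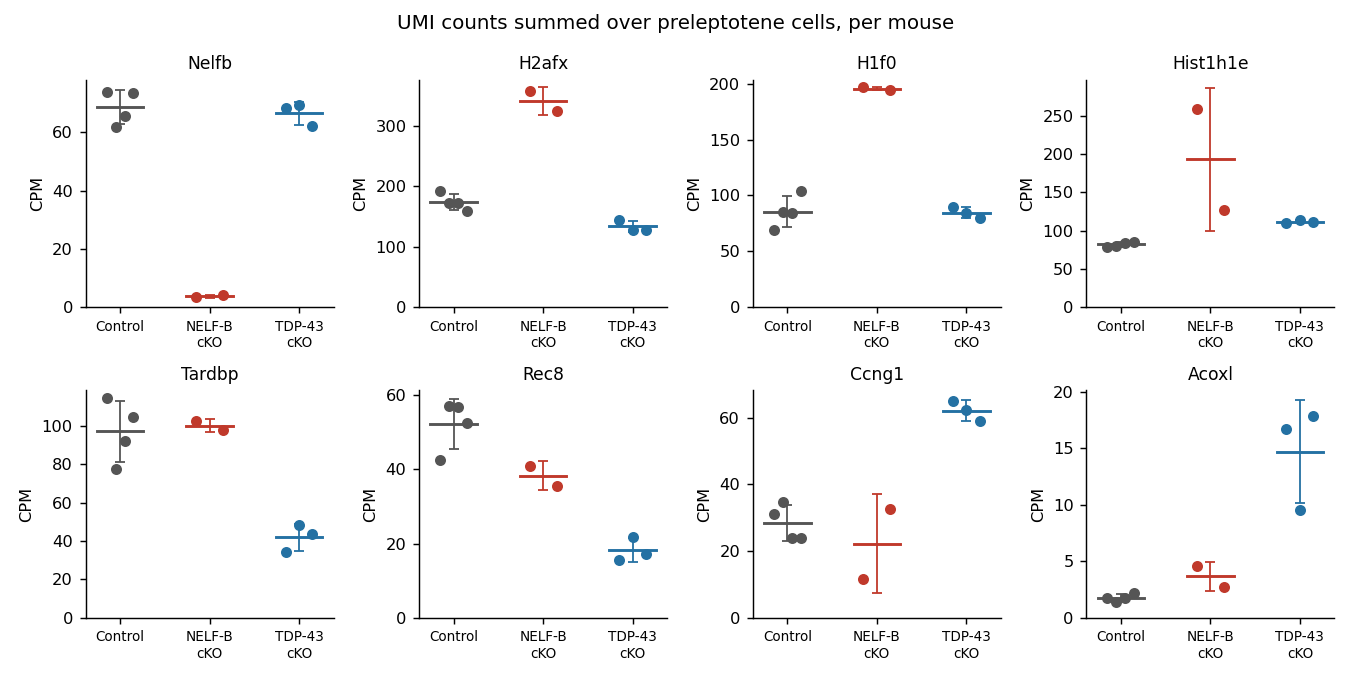
CPM of 8 genes in the pL cells of each mouse (points), with the mean and SD of each group. H2afx, H1f0 and Hist1h1e are highest in the 2 NELF-B cKO mice, Rec8 is lowest in the 3 TDP-43 cKO mice, and Ccng1 and Acoxl are highest in TDP-43 cKO mice.

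Of the 10 genes tested of the p53 and stress list, 1 rose in the TDP-43 cKO, where 2.32% of all genes did. Ccng1, which encodes the p53 target cyclin G1, was at 31.1, 34.8, 24.0 and 23.9 CPM in control mice, 11.6 and 32.8 CPM in NELF-B cKO mice and 65.1, 62.4 and 58.9 CPM in TDP-43 cKO mice, above all others (log2 fold change 1.16 ± 0.28, SE, adjusted p = 0.037). Bax, a pro-apoptotic gene, was at 142 to 179 CPM in control and 212 to 240 CPM in TDP-43 cKO mice, with a log2 fold change of 0.55 ± 0.15 (SE) and an adjusted p of 0.0555. Of the 10 genes tested, 5 were higher at an unadjusted p under 0.05 against 9.28% of all genes, and none was lower (13.1% of all genes). These were Cdkn1a, Bax, Pmaip1, Ccng1 and Phlda3, listed after their values were seen, and all 5 had every TDP-43 cKO mouse above every control, as had 9.79% of all genes. The median was 0.50. Summed, the list was at 440 to 537 CPM in control mice and 596 to 627 CPM in TDP-43 cKO mice. Without the cells rich in other markers 5 of 10 were again higher at an unadjusted p under 0.05, where the share over all genes was 6.58%, and Ccng1 was no longer called. The log2 fold change of Ccng1 was 1.06 to 1.58 over all 17 alternatives. In the NELF-B cKO none of the 10 was at an unadjusted p under 0.05, where 10.7% of all genes were higher and 9.3% lower. The median of the 10 there was -0.16. Ccng1 was also lower at high Stra8 in 9 of 9 mice (57.9 CPM in the lowest and 19.3 in the highest range). The summed list went from 581 to 432 CPM and Bax from 207 to 124 CPM, both lower in 8 of 9 mice. In free RNA Ccng1 averaged 7.04 CPM in control and 33.5 CPM in TDP-43 cKO mice, and Bax 29.6 and 128 CPM. The part of this gradient and of free RNA in the rises was not tested.

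Of the spermatogonial differentiation list, 1 gene rose in the TDP-43 cKO. Uchl1, a ubiquitin hydrolase of SG, was at 310, 335, 306 and 272 CPM in control mice and 370, 471 and 452 CPM in TDP-43 cKO mice (log2 fold change 0.52 ± 0.14, SE, adjusted p = 0.047), and was the 1 of 11 genes of its list that was called (2.32% of all genes were higher). It was no longer called without the cells rich in other markers, while its log2 fold change was 0.41 to 0.63 over all 17 alternatives. The median of that list was 0.32. None of the 11 genes was called in the NELF-B cKO, where 0.268% of all genes were and the median of the list was -0.10. Uchl1 in free RNA averaged 73.4 CPM in control and 276 CPM in TDP-43 cKO mice, so it moved the same way. Its mean level was 370 CPM in the lowest and 296 CPM in the highest range of Stra8, lower in 8 mice and higher in 1. Stra8 itself was at 531 to 798 CPM in control and 486 to 534 CPM in TDP-43 cKO mice. The part of free RNA and of this gradient in the rise of Uchl1 was not tested.

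Outside the cohesin and axis group, where Rec8 was called in the TDP-43 cKO, the meiotic groups held no called gene in either cKO. This was so for meiotic entry (13 genes), DNA replication (24), the synaptonemal complex centre (6), break formation (9) and strand exchange (15), and the medians of these lists lay between -0.10 and 0.13 on the log2 scale in both. Over all genes the shares called were 0.268% and 8.32%, so that a count of 0 was near the background for the NELF-B cKO. At an unadjusted p under 0.05, edgeR gave in that order 4, 4, 2, 2 and 0 genes higher and 0, 0, 0, 2 and 1 lower for the NELF-B cKO, and 2, 3, 0, 0 and 0 higher and 0, 0, 1, 1 and 1 lower for the TDP-43 cKO. Over all genes these shares were 10.7% and 9.3%, and 9.28% and 13.1%. Meioc, whose protein keeps cells in the meiotic programme, was at 285 to 408 CPM in control, 371 and 489 in NELF-B cKO and 276 to 286 in TDP-43 cKO mice. Dmc1 was at 276 to 363 CPM in control, 321 and 376 in NELF-B cKO and 275 to 365 in TDP-43 cKO mice, with overlapping groups. Spo11, Meiob, Spata22 and Rad51c, genes of breaks and their repair, drew attention in the study. Its test of gene expression pooled SG, pL, L and zygotene cells and used DESeq2. Germ cells that expressed the targeted gene had been removed from its cKO samples. The values here are from pL cells alone, with such cells kept, and do not test its calls. Spo11 was at 19.5, 20.96, 25.8 and 27.8 CPM in control mice, 15.4 and 15.0 CPM in NELF-B cKO mice and 17.9, 16.2 and 14.1 CPM in TDP-43 cKO mice. Both cKO groups lay below all controls, with log2 fold changes of -0.59 ± 0.22 (SE, adjusted p = 0.183) and -0.54 ± 0.18 (SE, adjusted p = 0.108), neither called, and Spo11 in free RNA averaged 67.5 CPM in control, 34.6 in NELF-B cKO and 24.5 in TDP-43 cKO mice. Meiob, Spata22 and Rad51c were not called and overlapped control in both cKOs.

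Of 12 genes of G2 and M phase, 8 were higher in the NELF-B cKO at an unadjusted p under 0.05 (10.7% of all genes). None of the 12 was called there, where 0.268% of all genes were, and the median log2 fold change was 0.35. Cenpf, of the kinetochore, was at 562 to 659 CPM in control and at 837 and 908 CPM in NELF-B cKO mice (log2 fold change 0.54, adjusted p = 0.0528). In the TDP-43 cKO it was at 714, 780 and 800 CPM and was called (log2 fold change 0.32, adjusted p = 0.047), the 1 of 12 that was, where 8.32% of all genes were called. Mki67 was at 181 to 257 CPM in control and 298 and 330 CPM in NELF-B cKO mice (adjusted p = 0.0679). Without the cells rich in other markers, Cenpf and Mki67 were called in the NELF-B cKO and none of the 12 in the TDP-43 cKO. Of all 13973 genes in that setting, 99 were higher and 33 lower in the NELF-B cKO, and 2 and 3 in the TDP-43 cKO. A count of 0 in the TDP-43 cKO is therefore near the background.

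With Nelfb itself set aside, the 6 largest falls that the naming rule took in the NELF-B cKO were in Map3k5, Sorl1, Sh3rf3, Anks1b, Htatip2 and Arhgap44. Sorl1, a sorting receptor, was at 32.9, 32.9, 50.7 and 40.8 CPM in control mice and 14.4 and 14.7 CPM in NELF-B cKO mice (log2 fold change -1.40 ± 0.21, SE, adjusted p = 0.0364). Sh3rf3, a ubiquitin ligase, was at 50.6, 74.3, 88.3 and 82.5 CPM in control mice and 29.9 and 32.5 CPM in NELF-B cKO mice (log2 fold change -1.22 ± 0.20, SE, adjusted p = 0.0435). Over the 9 mice, both genes were higher in pL cells than in SG and L cells in each mouse. Arhgap44 was at 50.5 to 50.8 CPM in control mice and 23.9 and 24.0 CPM in NELF-B cKO mice (log2 fold change -1.03, adjusted p = 0.0136). Map3k5, a stress kinase, was at 40.8 to 51.2 CPM against 22.8 and 12.6 CPM (-1.40, adjusted p = 0.0364). Against the NELF-B cKO, the TDP-43 cKO was higher for Sorl1 (adjusted p = 0.0348), Map3k5 (0.0265), Anks1b (0.0341) and Arhgap44 (0.039). Arhgap44 was also below all controls in TDP-43 cKO mice, at 36.5, 39.8 and 41.6 CPM. It was not called there (log2 fold change -0.35, adjusted p = 0.0602, edgeR).

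Among the 6 largest rises that the naming rule took in the NELF-B cKO was Scn8a, a sodium channel gene. It was at 18.8 to 26.1 CPM in control and 55.2 and 42.9 CPM in NELF-B cKO mice (log2 fold change 1.17 ± 0.17, SE, adjusted p = 0.0301). Scn8a too was higher in pL cells than in both neighbours in 9 of 9 mice. Of these 6 rises, the long non-coding RNAs Gm35288 and Gm28055 had the largest fitted values, 3.70 and 2.72, and both were called in the TDP-43 cKO as well. They came from few cells. With the gate after thinning both changed sign, to -1.83 and -1.64 in the NELF-B cKO and to -1.81 and -1.72 in the TDP-43 cKO. Gm35288 was found in 14 and 10 NELF-B cKO cells, of which a single cell gave 33.3 and 85.7% of its UMIs, and for Gm28055 a single cell gave 65.0 and 90.6%. By contrast, H2afx was found in 89.4 and 95.9% of NELF-B cKO pL cells, and its highest cell gave 6.02 and 5.37% of its UMIs.

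The largest rises that the rule took in the TDP-43 cKO also came from few cells. Acoxl, an acyl-CoA oxidase-like gene on chromosome 2 (127838876 to 128123873), was at 1.43 to 2.17 CPM in control mice and 16.7, 9.56 and 17.9 CPM in TDP-43 cKO mice (log2 fold change 3.05 ± 0.36, SE, adjusted p = 0.00887). A single cell gave 66.5, 70.0 and 59.7% of its UMIs in the 3 TDP-43 cKO mice, against 20.0 to 50.0% of 2 to 5 UMIs in control mice. It was found in 24, 15 and 25 TDP-43 cKO cells. Prss12 rested on 1 mouse, with 4.88, 30.6 and 0.995 CPM, and a single cell of replicate 2 gave 80.7% of the UMIs there. For Gm14342, Gm19705, Gm49016 and Ptpn18 a single cell gave between 24.2 and 90.6% of the UMIs of a TDP-43 cKO mouse. Of the 2 genes that stayed higher without the cells rich in other markers, 1 was Acoxl and the other Adcy7 (log2 fold change 1.41).

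The 6 largest falls that the rule took in the TDP-43 cKO were in Tnp2, Tex48, Cnbd1, Spz1, 1700013G24Rik and Ccdc54. Tnp2, which encodes a transition protein of spermatid chromatin, was at 25.8, 0.953, 39.8 and 23.5 CPM in control mice, 44.5 and 0 CPM in NELF-B cKO mice and 0.104, 0 and 0.249 CPM in TDP-43 cKO mice. In free RNA it averaged 400 CPM in control and 2.55 CPM in TDP-43 cKO mice, and the other 5 averaged 15.6 (Cnbd1) to 202 CPM (1700013G24Rik) there in control mice. Tex48, Spz1, Cnbd1, Ccdc54 and 1700013G24Rik were at 0 to 0.995 CPM in TDP-43 cKO mice and at 0.869 to 30.0 CPM in control mice. Of the 10 round spermatid markers 7 were called lower, with sums of 151 to 230 CPM in control and 15.3 to 26.1 CPM in TDP-43 cKO mice, and 4 of 7 pachytene and diplotene markers were called lower, where 5.99% of all genes were. In the other direction, 6 of 7 Sertoli markers were called higher (2.32% of all genes), with sums of 224 to 401 CPM in control and 535 to 815 CPM in TDP-43 cKO mice. The median pL cell held 1 to 2.5 Sertoli marker UMIs in control mice and 3 in each TDP-43 cKO mouse, and the 10% of cells with the most held 47.7 to 79.1% and 76.4 to 85.6% of them. Without the cells rich in other markers none of the spermatid, pachytene or Sertoli markers was called. In that setting 2 of all 13973 genes were called higher and 3 lower. All 10 spermatid markers and all 7 pachytene and diplotene markers tested were still lower at an unadjusted p under 0.05 (11.4% of all genes). After subtraction of free RNA none of these genes was called. The subtraction was scaled to the summed spermatid and somatic markers, and the rich cells were picked by the same markers. Neither step can therefore test the spermatid and Sertoli markers. The pachytene and diplotene markers were used in neither step, and the source of their UMIs was not tested.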

How the data were processed

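Single cell RNA-seq was made from whole testes with the 10x Genomics 3′ assay. The authors deposited unfiltered matrices of UMI counts per gene and barcode. The notes of the submitters name Cell Ranger 6.1.1 and 7.0.0, and the file headers another release, so the version behind each matrix is uncertain. The quality filter (over 1000 genes, under 10% of UMIs mitochondrial) and the gate were applied, and counts were summed per mouse over the gated cells. Mice were compared with the quasi-likelihood test of edgeR 4.0.16 (TMM factors, filterByExpr, Benjamini-Hochberg adjustment, R 4.3.3), with all 9 mice in 1 fit and calls at an adjusted p under 0.05. Shares were compared with exact two-sided permutation tests. On simulated data the fit recovered 51% of 2-fold and 69% of 3-fold changes for the NELF-B cKO, and 52% and 83% for the TDP-43 cKO. It also called 5 and 11 unchanged genes. The changed genes were taken above a minimum mean count and no mixed cells were simulated. These shares therefore do not carry over to genes with few UMIs. The members of the gate and the gene lists were chosen with earlier results of these data known. Named were the gate genes, markers, targeted genes, the genes that the study named, for each list the 3 most abundant members and up to 4 called per direction, and for each cKO, the targeted gene set aside, the 6 largest called changes per direction without overlap between mice and with at least 10 CPM in the higher group. No doublet caller was run, and cells over 2 times the median UMIs of their mouse were left out as an alternative. Free RNA was read from barcodes of 1 to 100 UMIs. For its subtraction the profile was scaled to the summed markers of round spermatids and somatic cells in the pL cells. Other alternatives were DESeq2 1.42.0 as test or for size factors, no filter on low counts, the cut-offs of the study applied to edgeR values without shrinkage, leaving out each mouse, a replicate block, leaving out cells that held Nelfb or Tardbp UMIs, the gate after thinning, subtraction of free RNA, and, chosen after seeing the data, leaving out cells rich in markers of other cells. Positions are from GENCODE on GRCm38.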

Additional observations from a re-analysis of the deposited data

Results flagged for a closer look

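Among 82 named genes, 3 had a control mouse that stood far from the other 3 by Dixon's test at the 95% level. Chance alone flags about 1 in 20 groups. Map3k5 was at 40.8 CPM in control replicate 1 and at 50.0 to 51.2 CPM in the other control mice. Piwil1, a gene of the gate, was at 79.1 CPM in control replicate 3 and at 64.3 to 66.2 CPM in the others. Gfra1, also of the gate, was at 0 CPM in control replicate 1 and at 0.869 to 0.953 CPM in the others.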

How the results depend on the processing

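The direction of each mean share held under all alternatives run, though not for each mouse. With 1 mouse left out the ratios to control were 2.35 to 3.2 (NELF-B cKO) and 4.24 to 5.76 (TDP-43 cKO). After thinning the ratios were 1.44 and 1.50, with overlapping groups. NELF-B cKO replicate 2 (2.26%) was then below the control mean (2.70%). Removal from cKO mice of pL cells that still held Nelfb or Tardbp UMIs gave 2.60 and 2.25, which moved the TDP-43 cKO ratio from 4.89. The counts of called genes, 28 higher and 11 lower in the NELF-B cKO and 338 higher and 872 lower in the TDP-43 cKO, were less stable. For the NELF-B cKO the counts (higher, then lower) were 407 and 246 with DESeq2, 194 and 44 without the filter on low counts, 0 and 1 with the cut-offs of the study on edgeR values without shrinkage, 11 and 3 without cells with a Nelfb UMI in all mice, 10 and 5 with the gate after thinning, 0 and 1 after subtraction of free RNA, 46 and 21 without cells of very high UMI count, and 99 and 33 without cells rich in other markers. For the TDP-43 cKO they were 436 and 1266 with DESeq2, 507 and 1226 without the filter, 12 and 1 with those cut-offs, 1 and 3 without cells with a Tardbp UMI in cKO mice, 2 and 0 without them in all mice, 1 and 1 with the gate after thinning, 0 and 0 after subtraction of free RNA (lowest adjusted p 0.184, edgeR), 1 and 0 without cells of very high UMI count, and 2 and 3 without cells rich in other markers. With 1 mouse left out they ranged from 0 to 231 and from 1 to 373 in the NELF-B cKO, and from 11 to 283 and from 1 to 473 in the TDP-43 cKO. The cause of these shifts was not tested. Gm35288 and Gm28055 changed sign with the gate after thinning, to -1.83 and -1.64 in the NELF-B cKO and to -1.81 and -1.72 in the TDP-43 cKO. Of the named results, H1f0 was called in 12 of 16 alternatives, H2afx in 11 of 16 and Rec8 in the TDP-43 cKO in 12 of 17, with adjusted p up to 0.279, 0.288 and 0.255, while Tardbp in the TDP-43 cKO was called in 9 of 15 (adjusted p up to 0.953), Map3k5 and Sh3rf3 in 9 of 16, Scn8a, Sorl1, Htatip2 and Arhgap44 in 8 of 16, Hist1h1e and Anks1b in 7 of 16, Ccng1, Uchl1 and Hist1h2bm in 3 of 17 and Cenpf in 2 of 17. All of these kept their direction.

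The replicate numbers did not pair the mice: deviations of same-numbered mice correlated at -0.387 to 0.0254 over 7 pairs. With the number as a replicate block, 0 genes were higher and 1 lower in the NELF-B cKO, and 0 and 0 in the TDP-43 cKO (lowest adjusted p 0.0967, edgeR). Depth differed between mice (8966 to 22867.5 UMIs in the median pL cell), and its effect on genes with few UMIs was not compared with that on others.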

Other observations

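Of 10 pausing genes, Nelfb was the 1 called in the NELF-B cKO and none was called in the TDP-43 cKO, where 0.268% and 8.32% of all genes were called. Supt5, a subunit of the elongation factor DSIF, was at 171 to 214 CPM in control mice and at 236 CPM in both NELF-B cKO mice (adjusted p = 0.179, edgeR), and Nelfe was at 155 to 187 CPM against 144 and 152 CPM (adjusted p = 0.423). Of 8 piRNA pathway genes none was called in either cKO, with medians of -0.20 and -0.24 on the log2 scale. Of 10 immediate early genes none was called either, with medians of 0.80 and 0.68. With so few genes, counts of 0 are near these background shares. Fos, which responds to handling of tissue, was at 33.0 to 79.6 CPM in control, 57.0 and 197 CPM in NELF-B cKO and 79.5 to 145 CPM in TDP-43 cKO mice. Adcy7, an adenylyl cyclase gene, was chosen after its values were seen. It was at 29.6 CPM on average in control and 63.6 CPM in TDP-43 cKO mice (log2 fold change 1.17, adjusted p = 0.0275), and at 70.0 CPM in NELF-B cKO mice (log2 fold change 1.34, adjusted p = 0.0617). It was called in both without the cells rich in other markers, at 1.41 (adjusted p = 0.0384) and 1.51 (adjusted p = 0.0185).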
